A study of Mus musculus with 2 samples.

Results

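The 6 genes of the Mir34 and Mir449 family (Mir34a, Mir34b, Mir34c, Mir449a, Mir449b and Mir449c) were taken from microRNA sequencing of mouse embryonic facial prominence by matching the Ensembl identifiers of the count tables to these symbols. They were 6 of 1973 counted miRNA genes and 6 of the 333 genes with at least 10 reads in each library. The tissue came from healthy embryos of strain B6NCrl at embryonic day 15.5, males and females mixed, with no treatment or altered allele named. Replicate 1 was a pool of 78 embryos and replicate 2 a pool of 62, and these made up the only group, so the design allowed a description of levels and a comparison of one pool with the other.

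Members of this family act through a common seed, the bases near the 5′ end of a miRNA that pair with target messages. The Mir449 hairpins and the Mir34b/c pair are known from multiciliated epithelium, such as that of the airway, where they act redundantly in the program that makes many basal bodies and motile cilia, in part by lowering Notch signalling and the centriolar protein Cp110. Mir34a is known mostly as a gene induced by the tumour suppressor p53, and it is expressed in many tissues. Each hairpin can release a 5p and a 3p arm, and the deposited counts give 1 number per gene, so the arms could not be told apart. The tables count miRNA genes and no messenger RNA, so the ciliated epithelium of the family's name could not be set against marker messages of ciliated cells.

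The 5p arms are shown because the family is defined by them. RefSeq sequences on GRCm38.p6 held 9 mature miRNAs of 5 of the genes, 4 of them 5p arms, and Mir449b and the 5p arm of Mir34c are named only. Written 5′ to 3′, with bases 2 to 8, the seed, in capitals, they read
miR-34a-5p: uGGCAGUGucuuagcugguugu
miR-34b-5p: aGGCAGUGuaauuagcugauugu
miR-449a-5p: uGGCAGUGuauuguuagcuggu
miR-449c-5p: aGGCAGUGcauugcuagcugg
All 4 carried the same seed, and none of the other mature miRNAs among the 1738 in the table did. Beyond the seed, miR-34a-5p and miR-449a-5p shared a run of 9 bases, uuagcuggu, and were identical at 15 of 22 positions counted from the 5′ end without gaps. The cluster neighbours miR-449a-5p and miR-449c-5p were identical at 18 of 21 positions.

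The 3p arms are shown because they divide the family where the 5p arms unite it. With the same capitals they read
miR-34a-3p: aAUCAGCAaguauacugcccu
miR-34b-3p: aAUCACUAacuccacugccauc
miR-34c-3p: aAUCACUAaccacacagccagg
miR-449a-3p: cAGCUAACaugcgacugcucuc
miR-449c-3p: cAGUUGCUagcugcacuacccu
The 5 arms held 4 different seeds, and only the neighbours miR-34b-3p and miR-34c-3p shared one, with 17 of 22 positions identical. No hairpin of the 5 genes in the table shared a run of 18 bases with any other hairpin there, against 63 of the 284 detected genes with a hairpin in the table. The longest such run was 14 bases, between Mir449a and Mir679.

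The genes lie at 3 places in the genome (mm10). Mir34a lies at chr4:150068454-150068555 on the plus strand, where it overlaps an exon of the unconfirmed transcript Gm37795. Mir34c (chr9:51103034-51103110) and Mir34b (chr9:51103562-51103645) lie 451 bases apart on the minus strand, outside other genes on that strand and opposite an intron of Btg4. The Mir449 genes lie on the plus strand in an intron of Cdc20b, a gene related to the cell cycle regulator Cdc20. Mir449c (chr13:113035983-113036091) comes first, Mir449b (chr13:113037419-113037498) follows, and Mir449a (chr13:113037534-113037624) begins 35 bases after Mir449b ends.

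The libraries held 2978463 reads assigned to miRNA genes in replicate 1 and 6408008 in replicate 2. Multimapped reads, which no gene received, equalled 60.1% and 65.3% of the assigned reads. Levels are given as CPM, a gene's reads divided by the library's assigned reads and multiplied by 1000000, after TMM scaling, which corrects library totals for differences in composition, with the SD over the 2 pools. A count of 3 reads, treated as the floor, stood for 1.00 CPM in replicate 1 and 0.470 CPM in replicate 2, and all 6 genes lay above it in both. Only 2 reads of the family, both of Mir34b in replicate 2, lay on the strand opposite the gene.

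Mir449a dominated the family. It had 22656 reads in replicate 1 and 84887 in replicate 2, which is 7570 and 13311 CPM, or 10441 ± 4060 CPM (SD, n = 2). It ranked 24 among the 333 detected genes by mean level, 28 in replicate 1 and 20 in replicate 2. Mir449a supplied 85.3% of the family's reads in replicate 1 (95% exact Clopper-Pearson interval 84.9 to 85.7) and 90.3% in replicate 2 (90.2 to 90.5). The family as a whole took 0.892% of the assigned reads in replicate 1 (0.881 to 0.903) and 1.47% in replicate 2 (1.46 to 1.48), and its summed level was 11805 ± 4143 CPM (SD, n = 2).

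The Mir34 genes followed at lower levels. Mir34c, the main product of the pair on chromosome 9, had 2387 and 6448 reads, which is 798 and 1011 CPM (904 ± 151, SD, n = 2), and ranked 107. Its neighbour Mir34b had 103 and 281 reads, or 34.4 and 44.1 CPM (39.2 ± 6.82), and ranked 249. Mir34a had 1362 and 2090 reads, or 455 and 328 CPM (391 ± 90.0), and ranked 134, above the median detected gene at 180 CPM. Mir34a was the only member that stood lower in replicate 2.

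The remaining Mir449 genes were close to the low end of detection. Mir449c had 30 and 134 reads, or 10.02 and 21.01 CPM (15.5 ± 7.77, SD, n = 2), and ranked 278. Mir449b had 26 and 122 reads, or 8.69 and 19.1 CPM (13.9 ± 7.38), and ranked 285. For both genes, as for Mir449a, replicate 2 was the higher library.

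**Figure D1:**
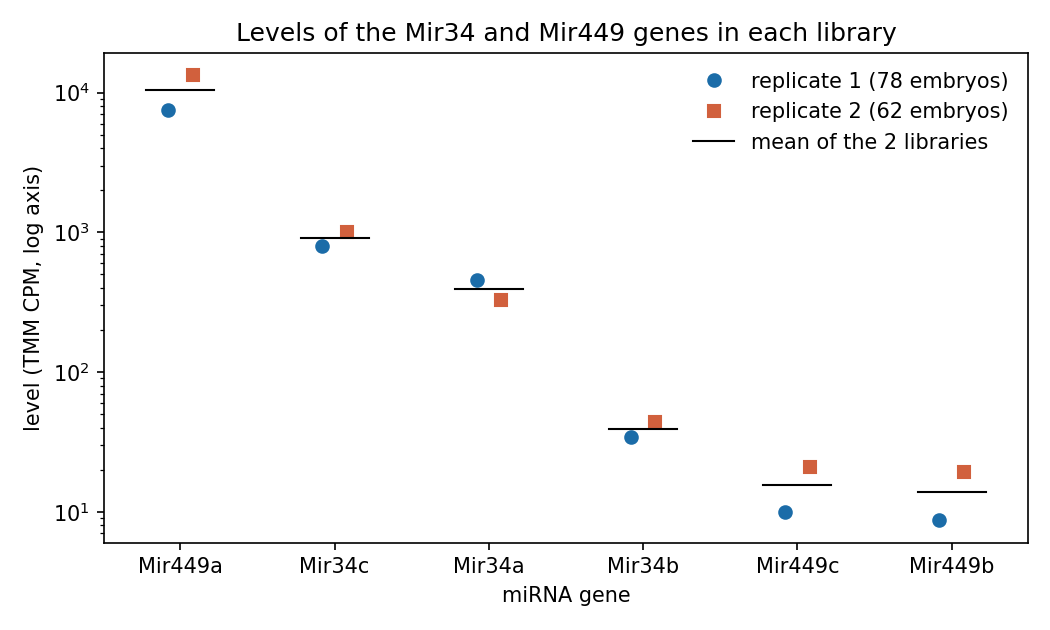
Level of each Mir34 and Mir449 gene in TMM CPM on a log axis, with a point for each pool and a bar at the mean of the 2 libraries. Mir449a stands at 7570 and 13311 CPM, while Mir449b and Mir449c, from the same intron, lie between 8.69 and 21.01 CPM.

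A read of a small RNA library spans a mature miRNA rather than a piece of a longer transcript. Reads therefore need not scale with hairpin length, and ratios per base of hairpin are given as an alternative. The comparison of clusters below ranks the highest over the next gene per base, with the main ratios in CPM beside it. For replicates 1 and 2 in turn, Mir449a had 9.49 and 13.2 times the reads of Mir34c. Mir34c had 1.75 and 3.09 times those of Mir34a, and Mir34a had 13.2 and 7.44 times those of Mir34b. Mir34b had 3.96 and 2.30 times the reads of Mir449b. Per base, Mir449a exceeded Mir34c, the next gene, 8.03-fold in replicate 1 and 11.1-fold in replicate 2. Per base, Mir34c exceeded Mir34a 2.32-fold and 4.09-fold, and Mir34a exceeded Mir34b 10.9-fold and 6.13-fold. Per base, Mir34b stood 3.77-fold and 2.19-fold above Mir449b. The order of these 5 genes was the same in both libraries.

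The lowest pair could not be ordered. In reads, Mir449c stood above Mir449b 1.15-fold in replicate 1 (95% exact interval 0.660 to 2.03) and 1.10-fold in replicate 2 (0.853 to 1.42), and both intervals include equal levels. Per base of hairpin the order turned, with Mir449c at 0.847 and 0.806 times Mir449b. These intervals, like all others here, cover counting error only, since the reads carry no molecular identifiers named in the labels and are not independent molecules.

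The most abundant Mir449 gene stood further above the next gene of its cluster than in any other cluster measured. Mir449a exceeded Mir449c 755-fold in reads in replicate 1 (529 to 1120) and 633-fold in replicate 2 (535 to 756), and Mir449b 871-fold (595 to 1334) and 696-fold (583 to 838). Clusters were formed from counted miRNA genes at most 10 kb apart on a strand, and 42 of them had at least 2 detected genes. The median ratio of the highest to the next highest gene of a cluster, in mean CPM per hairpin base, was 3.79. The Mir449 cluster had the largest ratio of the 42, 660-fold, and was the only one of 14 clusters with at least 3 detected genes to exceed 100-fold. The next 2 clusters were those of Mir99a (436-fold) and Mir30e (268-fold), each of which held at least 1 gene that shares 18 bases with another hairpin. The clusters of Mir206 (148-fold) and Mir181a-1 (129-fold) came after them and held 0 and 2 such genes. In mean CPM without division by length, the Mir449 cluster was also first, at 673-fold against a median of 3.57. Mir99a (301-fold) and Mir30e (277-fold) followed, and Mir181a-1 (140-fold) then stood above Mir206 (91.1-fold). The part of multimapped reads in these ratios was not tested, and the hairpin of Mir449b was not compared. From the highest to the lowest detected gene, in mean CPM, the Mir449 cluster spanned 751-fold and ranked 4 of the 42, behind the larger clusters of Mir322 (2130-fold), Mir411 (1736-fold) and Mir17 (1438-fold). The Mir34b/c pair ranked 14, with Mir34c 25.1-fold above Mir34b per base.

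**Figure D2:**
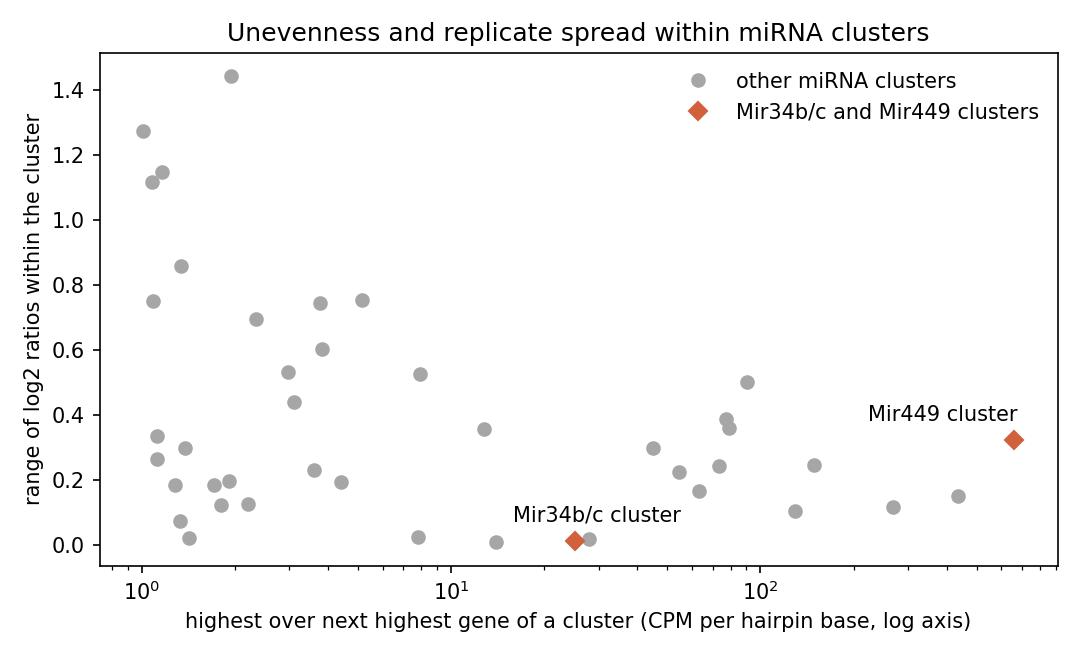
Each point is 1 of 42 miRNA clusters, with the ratio of its highest to its next highest gene in CPM per hairpin base on a log axis and the range of log2 ratios between the libraries among its detected genes. The Mir449 cluster lies farthest right at 660-fold, and the Mir34b/c cluster lies low, with a range of 0.01.

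The pools were then compared with each other to see how far family members differ between samples of the same tissue. Each detected gene was tested by a two-sided exact binomial test on its reads, with Benjamini-Hochberg adjustment over all 333 genes. With 1 library against 1, this test compares these libraries and not populations of embryos. Of the 6 members, 4 were called higher in replicate 2, against 25.8% of all detected genes, 1 was called higher in replicate 1, against 27.6%, and 1 was not called. By size, 3 members were over 1.5-fold higher in replicate 2, against 8.11% of detected genes, and 0 were over 1.5-fold higher in replicate 1, against 3.3%. These 3, also among the 4 called, were Mir449a, Mir449b and Mir449c, which lie in the same intron of Cdc20b. As neighbours at the same locus they are not independent, and the shares of all detected genes do not allow for that. The median log2 ratio of replicate 2 over replicate 1 was 0.59 over the members and −0.01 over all detected genes.

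All 3 Mir449 genes were higher in replicate 2. Mir449a was called and was 1.76-fold higher, a log2 ratio of 0.81 (95% exact interval 0.79 to 0.84). Mir449c was 2.10-fold higher, a log2 ratio of 1.07 (0.49 to 1.69, exact binomial adjusted p = 0.000264), and Mir449b was 2.20-fold higher, a log2 ratio of 1.14 (0.52 to 1.81, exact binomial adjusted p = 0.00024). Mir449a stood out for its level: of the 28 other genes within 2-fold of its mean CPM, 0 had a larger difference between libraries, the largest reaching a log2 ratio of 0.56 and their median absolute log2 ratio being 0.14. For Mir449b and Mir449c the corresponding counts were 3 of 50 and 4 of 48 genes, with median absolute log2 ratios of 0.32 in both bands.

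The Mir34 genes differed less and not in one direction. Mir34c was 1.27-fold higher in replicate 2, a log2 ratio of 0.34 (0.27 to 0.41, exact binomial adjusted p = 4.37e-23). Mir34b had nearly the same log2 ratio, 0.36 (0.03 to 0.70), on far fewer reads and was not called (exact binomial adjusted p = 0.0605). With DESeq2 size factors in place of TMM its log2 ratio was 0.38 and it was called (exact binomial adjusted p = 0.0411). It was also called with a filter of 100 reads, which left 247 genes and was applied to its ratio after seeing the data (exact binomial adjusted p = 0.0493), and its adjusted p ranged from 0.0411 to 0.116 over all alternatives run. Mir34a was 1.39-fold higher in replicate 1, a log2 ratio of −0.47 (−0.57 to −0.37, exact binomial adjusted p = 7.11e-20). Among 50 other genes of like level, 5 had a larger absolute log2 ratio than Mir34a.

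**Figure D3:**
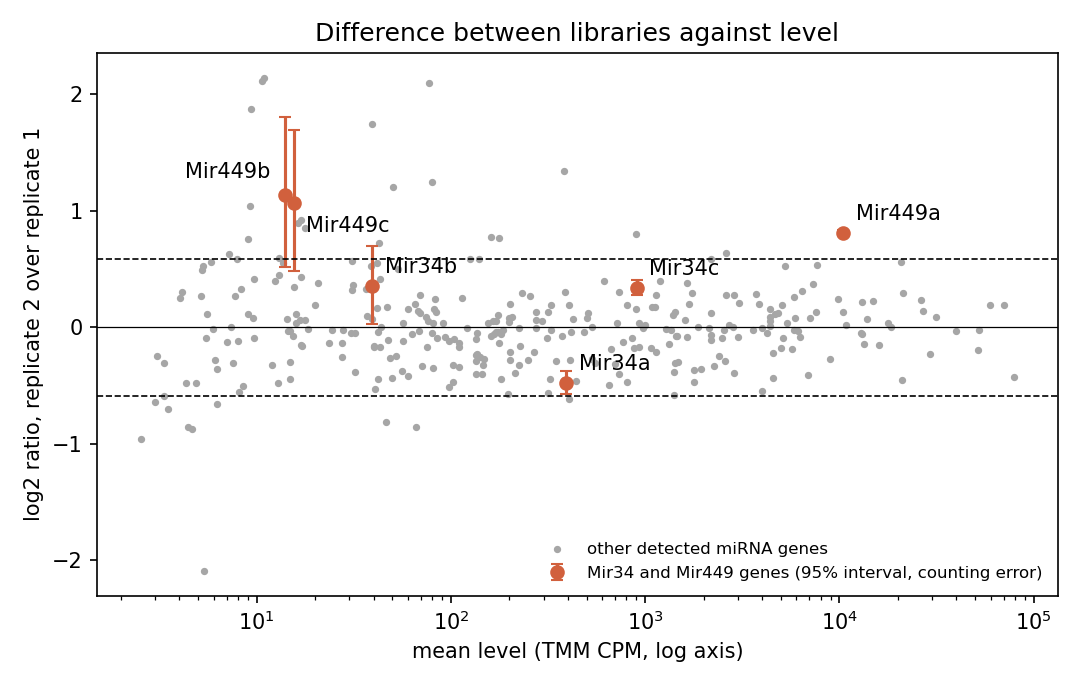
Log2 ratio of replicate 2 over replicate 1 against mean level (TMM CPM, log axis) for the detected genes, with the 6 family members in colour and 95% exact intervals for counting error, and dashed lines at 1.5-fold. Mir449a lies above the upper line and no other gene within 2-fold of its level does, and Mir34a is the only member below 0.

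Log2 ratios differed between the 3 loci by more than counting error, and within a locus no such difference was detected. The difference between the log2 ratios of 2 genes does not depend on how the libraries are scaled. It was −0.01 between Mir34c and Mir34b (95% exact interval −0.36 to 0.32), −0.25 between Mir449a and Mir449c (−0.88 to 0.33), −0.32 between Mir449a and Mir449b (−0.996 to 0.296) and −0.07 between Mir449c and Mir449b (−0.97 to 0.82). These 4 pairs, all within a locus, were the only ones of the 15 pairs of members whose interval includes 0. The intervals of the Mir449 pairs are wide enough to hold differences of over 1.5-fold. Each of the 4 pairs includes Mir34b, Mir449b or Mir449c, the members with the fewest reads, which widens its interval. The 15 intervals were not adjusted for their number, and the share of differing pairs among all detected genes was not computed. Between loci, Mir449a moved further toward replicate 2 than Mir34c by 0.47 (0.40 to 0.54) and than Mir34a by 1.29 (1.19 to 1.39), and Mir34c moved further than Mir34a by 0.82 (0.69 to 0.94). Across the 42 clusters the median range of log2 ratios was 0.28. The Mir34b/c range of 0.01 was the second smallest, and the Mir449 range of 0.32 was exceeded by 18 clusters. The Mir449 cluster was the only 1 of the 42 in which every detected gene was over 1.5-fold higher in the same library.

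Mir449a carried the family's difference between the pools. The summed family stood at 8876 CPM in replicate 1 and 14734 in replicate 2, a log2 ratio of 0.73 (0.71 to 0.75). Without Mir449a the other 5 genes summed to 1306 and 1423 CPM, a log2 ratio of 0.12 (0.07 to 0.18). Mir34a made up 5.13% of the family's reads in replicate 1 and 2.22% in replicate 2, and Mir34c made up 8.99% and 6.86%.

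The start of Cdc20b, the host gene of the 3 Mir449 genes, is shown to describe the locus. The RefSeq promoter window of Cdc20b (GRCm38.p6, chr13:113035129-113035428, plus strand) was searched on both strands for the RFX half-site in the forms GTTGCC and GTTACC and for the forkhead motif TGTTTAC, since RFX factors and Foxj1 are known regulators of ciliary genes. With matches in capitals it reads
Cdc20b promoter: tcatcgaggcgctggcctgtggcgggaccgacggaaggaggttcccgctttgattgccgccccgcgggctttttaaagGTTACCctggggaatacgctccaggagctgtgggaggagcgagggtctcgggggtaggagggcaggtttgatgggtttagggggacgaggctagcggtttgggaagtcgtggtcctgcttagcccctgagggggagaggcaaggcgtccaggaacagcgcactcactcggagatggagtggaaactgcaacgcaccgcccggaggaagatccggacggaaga
The 1 match was GTTACC, 172 bases before the annotated start, and these letters occurred in 7.21% of 32851 promoter windows. GTTGCC, present in 12.5% of windows, and TGTTTAC, present in 3.65%, had 0 matches here. A match describes letters only, and Cdc20b itself was not measured. Any relation of this window to the difference between the pools was not tested.

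No gene of the epithelial list differed between the pools by as much as the Mir449 genes. The 7 genes of the epithelial list, which includes the Mir200 family and the skin miRNAs Mir203 and Mir205, summed to 151799 CPM in replicate 1 and 128693 in replicate 2, which was 17.1 and 8.73 times the family's sum in CPM. Of these 7 genes, replicate 2 was called the higher library for 4, against 25.8% of all detected genes, and replicate 1 for 3, against 27.6%. None differed by over 1.5-fold, against 8.11% of detected genes toward replicate 2 and 3.3% toward replicate 1. Mir203 stood at 90474 and 67536 CPM, a log2 ratio of −0.42 (−0.43 to −0.41). Mir429 stood at 19130 and 23482 CPM, a log2 ratio of 0.30 (0.28 to 0.31), the largest toward replicate 2 in the list. Mir205 had the largest absolute log2 ratio, −0.45 (−0.47 to −0.44), at 24243 and 17733 CPM. In the sensory epithelial cluster of Mir183, Mir96 and Mir182, all 3 genes were called higher in replicate 2, against 25.8% of all detected genes. As neighbours at the same locus they are not independent. Their log2 ratios ran from 0.37 for Mir182 to 0.63 for Mir96, and only Mir96 was over 1.5-fold higher, against 8.11% of detected genes.

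Of 9 listed genes linked to p53 outside the family, 8 were detected. The test called 2 of them toward replicate 2, against 25.8% of all detected genes, called 2 toward replicate 1, against 27.6%, and did not call the other 4. Over all 8, log2 ratios ran from −0.21 to 0.44. Mir143, the most abundant of them, stood at 17564 and 18006 CPM, a log2 ratio of 0.04 (0.02 to 0.05). Mir16-1 stood at 1357 and 1484 CPM, a log2 ratio of 0.13 (0.08 to 0.18). Mir107 stood at 1223 and 1054 CPM, a log2 ratio of −0.21 (−0.27 to −0.16). Mir15a stood at 2834 and 2840 CPM, a log2 ratio of 0.00 (−0.03 to 0.04).

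Several miRNAs of other tissues also differed between the pools, and their part in the Mir449 difference was not tested. The liver miRNA Mir122 had 30.4 and 70.1 CPM, a log2 ratio of 1.20. Among Hox cluster miRNAs, Mir10a and Mir196b, chosen after their values were seen, had log2 ratios of 1.34 and 1.75. Others of the Hox clusters differed little: Mir10b, at 5764 and 6083 CPM, had 0.08, and Mir615 had 0.13 and was not called. The striated muscle list summed to 8080 and 6096 CPM with 4 of 8 counted genes detected, and the cartilage list to 15342 and 14429 CPM with 2 of 2. The mesenchyme list summed to 18060 and 16593 CPM with 4 of 4, a sum set mostly by Mir214, with a log2 ratio of −0.16. Its other genes lay the other way, at 0.28 for Mir199b, 0.20 for Mir199a-2 and 0.35 for Mir199a-1, which was not called. The endothelial Mir126a stood at 24124 and 28452 CPM, a log2 ratio of 0.24. The neural, leukocyte and erythroid lists summed to between 196 and 623 CPM in each library, and 4 of 8 counted neural genes were at or below the floor. The erythroid neighbours Mir144 and Mir451a lay in opposite directions, with log2 ratios of −0.86 and 0.59, which their sum hides. In pooled tissue, more cells of a type and more miRNA per cell cannot be told apart.

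By the level in both libraries, the non-member genes closest to Mir449a were Mir487b, Mir200c and Gm25301, at Euclidean distances of 0.41, 0.49 and 0.58 over log2 CPM in the 2 libraries. Their log2 ratios were 0.24, 0.13 and 0.02, all below that of Mir449a, so the likeness lay in level. All reads of Gm25301 lay on the strand opposite that gene. The genes closest to Mir34a were Mir665 (0.06), Mir376c (0.12) and Mir374b (0.18), with log2 ratios of −0.45, −0.62 and −0.28, whose direction the choice by level in both libraries largely fixes. Mir665 stood at 439 and 321 CPM, beside 455 and 328 CPM for Mir34a.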

How the data were processed

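Small RNA of 2 pools of mouse facial prominence was sequenced, and the counts deposited by the authors are raw reads for each miRNA gene on mm10 with the GENCODE M4 annotation, per the deposited file lists. Reads mapping to several places were set aside in the deposited counts. For the aligner and counter, the tools are not given in the sources used. Lines naming no gene stayed out of library sizes: unmapped reads were 16.2% and 21.8% of all reads, reads mapping to several places 30.6% and 29.7%, and reads outside annotated genes 2.19% and 3.01%. Symbols came from GENCODE M21, on the same build, and matched 1894 of 1973 genes.

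Counts on either strand were scaled by TMM (edgeR 4.0.16, R 4.3.3). The contrast of one replicate with the other leaves no residual degrees of freedom for a quasi-likelihood test. Reads were therefore compared by an exact binomial test (scipy 1.17.1, adjusted p threshold 0.05). The test was tried on simulated counts that held counting error only, as the test itself assumes. That trial checks the computation and does not cover spread between pools. A gene was called detected at 10 reads in each library. Alternatives were total counts, DESeq2 1.42.0 size factors, strand-specific counts, totals without the most abundant genes, other filters, hairpin length and each replicate alone. The members and lists were chosen with earlier results of these data known. Named genes were the members, the 3 nearest non-members to Mir449a and to Mir34a, and up to 4 members of each list. Mir10a, Mir10b, Mir196b, Mir615, Mir679, Mir99a, Mir30e, Mir181a-1, Mir322, Mir411 and Mir17 fall outside this rule and were named after their values were seen. The pools are biological replicates per the labels, so their spread covers dissection through sequencing.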

Additional observations from a re-analysis of the deposited data

How the results depend on the processing

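Of 99 alternative values that used both pools, 93 kept their direction and their side of the threshold, moved by less than the spread between the pools or, for counts of members, stayed within 1.5 times, and 0 reversed. Values from 1 pool are not in that tally, since with 2 pools they lie within 1 SD of the mean by construction. With totals computed without Mir203 and Mirlet7i, the most abundant genes, Mir34b stood at 46.1 CPM and Mir34c at 1063 CPM, because the totals are smaller. Per base of hairpin, Mir449a exceeded Mir449c 832-fold on average, against 694-fold in reads. With DESeq2 size factors the log2 ratio of Mir34b, 0.38, passed the threshold. With a filter of 100 reads, which left 247 genes, the log2 ratio of Mir34b, 0.36, passed it too (exact binomial adjusted p = 0.0493; 0.116 with no filter and 708 genes). The ratios of single members under these filters were added after seeing the data. The filter of 100 reads removed Mir449b and Mir449c, so that 3 members were called higher in replicate 2 and 1 was over 1.5-fold higher there. Each pool alone gave a summed family level of 8876 or 14734 CPM, a Mir449a share of 85.3% or 90.3%, and an epithelial sum of 17.1 or 8.73 times the family's. Depth limits Mir449b and Mir449c most, at 26 and 30 reads in replicate 1. No paired analysis was possible because there is 1 group.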
